A study of Mus musculus with 16 samples.

Results

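Cytoplasmic dynein 1, its activator dynactin and the axonal kinesins are described here by 10 genes in whole brain: Dync1li1, Dync1li2, Dync1h1, Dync1i1, Dync1i2, Dctn1, Kif5a, Kif5b, Kif5c and Kif1a. The 10 genes were found by their symbols among 55404 genes, and all 10 passed the filter on low values that left 23244 genes. They were put together as dynein, dynactin and axonal kinesin subunits around Dync1li1, which was chosen by its normalized values in these same mice, for its genotype difference. Their differences between the genotypes are therefore given as a description, with no test.

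Total RNA of whole brain was sequenced from 8 Tecpr2 ki/ki mice and 8 wt/wt mice, male animals of 5 months that received no treatment. Both alleles of Tecpr2 ki/ki mice hold the change labelled L1152fs, a frameshift made by CRISPR/Cas9 in C57BL/6J zygotes and carried by every cell, and wt/wt mice carry no such change. Each library came from 1 brain as a whole, so that motors of the medulla, where the study saw its axonal lesions, cannot be told apart from those of other regions. Fewer cells of a type and less RNA per cell cannot be told apart in such bulk samples either.

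Long axons are supplied and cleared by motors that walk on microtubules in opposite directions. Kinesins carry vesicles, mitochondria and lysosome-related organelles outwards, and cytoplasmic dynein 1, which works with dynactin and a cargo adaptor, carries autophagosomes, endosomes and signals back to the cell body. A dynein 1 complex is built on a pair of heavy chains that hold the motor domains, with intermediate chains that bind dynactin, light intermediate chains that bind the cargo adaptors, and small light chains.

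The normalized values are the authors' own, without a unit, and summed to between 11964284 and 12252324 per mouse. Tecpr2, the targeted gene, lay between 274 and 320 in Tecpr2 ki/ki and between 928 and 1002 in wt/wt, and every library matched its label. Markers of each brain cell type that was looked for were present in all 16 mice. Microglial markers summed to 2919 to 3071 in Tecpr2 ki/ki and 2518 to 2808 in wt/wt, with 9 of 10 higher and 4 called at an adjusted p under 0.1 (limma, Benjamini-Hochberg). Astrocyte markers summed to 65530 to 67989 and 61885 to 65321, with 9 of 10 higher and 3 called. Neuronal markers summed to 66373 to 69292 and 66614 to 71130, with 8 of 10 lower and 0 called. The sums of oligodendrocyte, endothelial and choroid plexus markers overlapped between the genotypes, with 7 of 10, 3 of 6 and 4 of 5 markers lower and 0 called. Over all 23244 genes, 0.133% were called at that limit. The study had already reported Trem2, C1qa and Gfap of these lists as higher in these mice.

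Dync1li1 (ENSMUSG00000032435, chromosome 9 from 114688790 to 114724302 on the plus strand of GRCm38) encodes light intermediate chain 1, which tethers adaptors of the BICD, Hook and RAB11FIP3 kind to the motor. Its normalized value lay between 814 and 899 with a median of 851 in Tecpr2 ki/ki, and between 885 and 965 with a median of 936.5 in wt/wt. The means were 855.5 ± 32.3 (SD, n = 8) and 928 ± 26.3 (SD, n = 8), a log2 difference of -0.12 (SE 0.0300), or -7.80%. All 8 Tecpr2 ki/ki mice were below the wt/wt median, and 6 of 8 were below every wt/wt mouse. The ranges met only through wt/wt mouse 7 with 885, which lay under Tecpr2 ki/ki mice 4 and 6 with 891 and 899, while the next wt/wt mouse had 901. Leaving out each mouse in turn gave log2 differences between -0.13 and -0.11.

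The sequence before the start of Dync1li1 is shown because this is the gene that the set was built around. RefSeq places 250 bases of it on GRCm38.p6, and the first 200 of them lie at chr9:114688581-114688780, plus strand, ahead of the annotated start. Capitals mark the words GCGCATGC and GCATGCGC, each the reverse complement of the other, which overlap here and form the core of the palindrome that nuclear respiratory factor 1 prefers.
Dync1li1: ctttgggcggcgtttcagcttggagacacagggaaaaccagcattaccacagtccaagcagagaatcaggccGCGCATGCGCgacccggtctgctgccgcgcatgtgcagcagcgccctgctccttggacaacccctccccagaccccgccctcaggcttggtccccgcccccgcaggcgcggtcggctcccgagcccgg
Of the 250 bases, 69.6% were G or C and 27 steps were CpG, against medians of 52.4% and 6 over 32851 mouse promoters. Over the 10 windows of the motor genes, the medians were 55.4% and 8. One window of Kif1a came close, with 69.2% and 22, while its other window had 50.8% and 1. The end of the 250 bases of Dync1li1 runs past the annotated start at 114688790, and the 200 bases shown do not. The word GCGCATGC was found on either strand in 2.26% of those promoters and, among the 7 of 10 motor genes with an entry, in that of Dync1li1 and in no other. The GC box GGGCGG, present in 32.74% of all promoters, was in the window of Dync1li1 and in 2 other windows of the motor genes, those of Dync1h1 and Dync1i2. TATAAA, in 12.37% of all promoters, was in the window of Kif5c, and CCAAT, in 33.85% of all promoters, was in 0 of the 10 windows. Binding to these words was not measured.

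Dync1li2 encodes light intermediate chain 2, which takes the same place in the complex and is the more abundant of the pair in these brains, also per kilobase of exons. Its normalized value lay between 2569 and 2665 with a median of 2621 in Tecpr2 ki/ki, and between 2674 and 2719 with a median of 2690.5 in wt/wt. The genotypes did not overlap, and the gap between the highest Tecpr2 ki/ki mouse and the lowest wt/wt mouse was from 2665 to 2674. The means were 2620 ± 42.7 and 2693 ± 16.9 (SD, n = 8 each), a log2 difference of -0.040 (SE 0.0195), or -2.72%. The wt/wt mice lay close together, with a coefficient of variation of 0.626%, against 1.63% in Tecpr2 ki/ki. Values of 5 of the 23244 genes, or 0.0215%, were lower in all 8 Tecpr2 ki/ki mice than in all 8 wt/wt mice, and the other 4 were Tecpr2, Tbc1d9b, Penk and Nsd2, which are named because they make up that count. The separation of Dync1li2 held when the libraries were scaled to equal totals, with a log2 difference of -0.036.

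**Figure D1:**
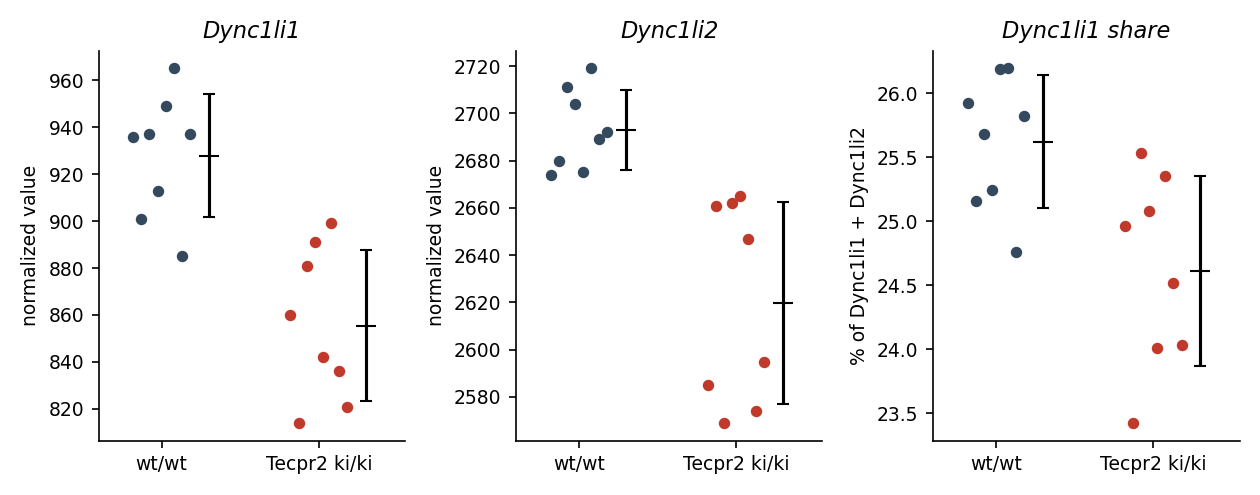
Normalized values of Dync1li1 (left) and Dync1li2 (middle) and the share of Dync1li1 in the sum of both in percent (right); each point is 1 brain of 8 wt/wt (grey) or 8 Tecpr2 ki/ki mice (red), and bars give the mean and SD. The vertical axes do not start at 0. Dync1li1 ran from 814 to 899 in Tecpr2 ki/ki and from 885 to 965 in wt/wt, and the Dync1li2 values of the genotypes did not overlap.

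Both light intermediate chains were lower, Dync1li1 by the larger fraction. Dync1li1 made up 24.6% ± 0.743 (SD, n = 8) of the summed values of the pair in the mutants and 25.6% ± 0.518 (SD, n = 8) in the controls, 1.01 percentage points apart in the direction of a lower share in Tecpr2 ki/ki. The share lay between 23.4% and 25.5% in Tecpr2 ki/ki and between 24.8% and 26.2% in wt/wt, so that 4 of 8 Tecpr2 ki/ki mice were below every wt/wt mouse and the other 4 were within the wt/wt range. Per kilobase of exons, the share was 33.7% and 34.9%. Over the 16 mice, with the mean of each genotype removed, the values of Dync1li1 and Dync1li2 had a Pearson r of 0.11, so that mice low in the one were not regularly low in the other.

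Dync1h1, the heavy chain that holds the motor domain, differed by less than the spread between mice. Its normalized value lay between 11660 and 12016 with a median of 11798 in Tecpr2 ki/ki, and between 11754 and 12246 with a median of 11819 in wt/wt. The log2 difference was -0.0074 (SE 0.0126), and -0.0012 without wt/wt mouse 4, the highest of all. With a coefficient of variation of 1.31% over the 16 mice, it varied least of the 10 genes.

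The intermediate chains, through which dynein meets dynactin, overlapped broadly between the genotypes. Dync1i1, the chain enriched in neurons, lay between 975 and 1076 with a median of 997.5 in Tecpr2 ki/ki, and between 970 and 1062 with a median of 1033.5 in wt/wt (log2 difference -0.032, SE 0.0285). Dync1i2, the chain found in most cells, lay between 1279 and 1404 with a median of 1350.5 in Tecpr2 ki/ki, and between 1286 and 1441 with a median of 1350 in wt/wt (log2 difference -0.013, SE 0.0269). The share of Dync1i1 in the summed values of both was 42.8% ± 0.918 and 43.1% ± 0.881 (SD, n = 8 each), and 0 of 8 Tecpr2 ki/ki mice had a share below every wt/wt mouse.

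Dctn1 encodes p150Glued, the dynactin subunit that binds the intermediate chains and the microtubule. It lay between 3640 and 3818 with a median of 3694 in Tecpr2 ki/ki, all within the wt/wt range of 3535 to 3853 around a median of 3737.5. The log2 difference was -0.0083 (SE 0.0188).

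The 3 kinesin-1 heavy chains, the motors of fast outward transport, differed in level far more between genes than between genotypes. Kif5a, the neuronal form that is mutated in hereditary spastic paraplegia, lay between 21755 and 23061 (median 22379) in Tecpr2 ki/ki and between 21608 and 23315 (median 22423.5) in wt/wt, with a log2 difference of -0.0055 (SE 0.0122). Kif5b, the form present in all cells, lay between 3699 and 4031 (median 3864) and between 3690 and 3945 (median 3880), with a log2 difference of 0.0022 (SE 0.0192). Neither difference was larger than its standard error, and both changed sign when single mice were left out. Kif5c, the other neuronal form, lay between 9172 and 9661 (median 9430.5) in Tecpr2 ki/ki and between 9256 and 9900 (median 9600.5) in wt/wt, with a log2 difference of -0.026 (SE 0.0143). For Kif5c, 7 of 8 Tecpr2 ki/ki mice were below the wt/wt median and 4 of 8 wt/wt mice were above every Tecpr2 ki/ki mouse.

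The make-up of kinesin-1 differed by less than the spread between mice. Kif5a held 62.8% ± 0.625 of the summed heavy chain values in Tecpr2 ki/ki and 62.5% ± 0.363 in wt/wt, Kif5b 10.8% ± 0.273 and 10.7% ± 0.258, and Kif5c 26.4% ± 0.476 and 26.7% ± 0.438 (SD, n = 8 each). These differences of 0.206, 0.0925 and -0.299 percentage points were smaller than the SD of either genotype.

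Kif1a, the kinesin-3 motor that carries synaptic vesicle precursors and dense core vesicles, was the member with the largest difference upwards. It lay between 14841 and 16486 with a median of 16076.5 in Tecpr2 ki/ki, and between 14685 and 16132 with a median of 15661.5 in wt/wt. The log2 difference was 0.022 (SE 0.0283), smaller than its standard error, and 4 of 8 Tecpr2 ki/ki mice lay above every wt/wt mouse while 3 of 8 lay below the wt/wt median.

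**Figure D2:**
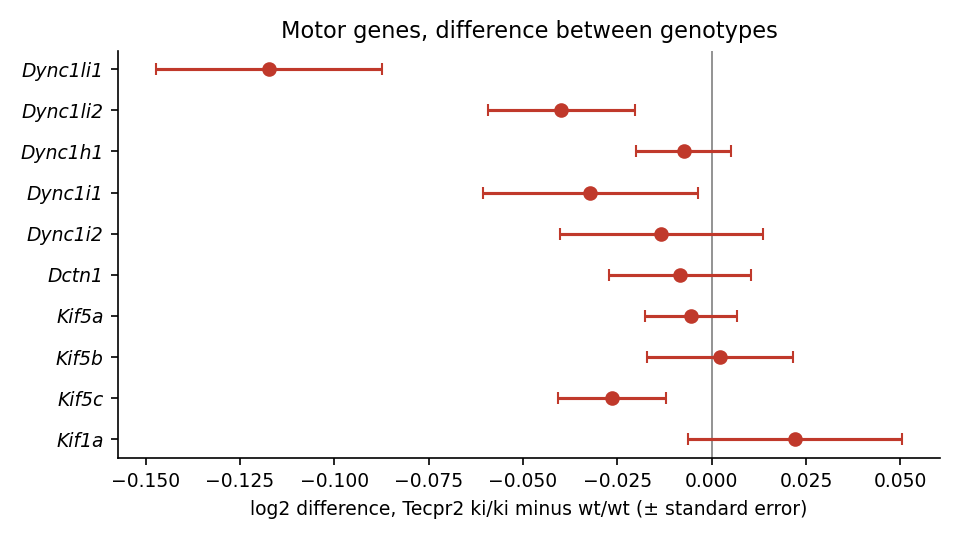
Log2 difference of each motor gene, Tecpr2 ki/ki minus wt/wt, with its standard error from the limma model (8 mice per genotype). Dync1li1 at -0.12 and Dync1li2 at -0.040 lie furthest below 0, and Kif1a at 0.022 lies highest.

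Of the 10 motor genes, 8 had a lower and 2 a higher mean log2 value in Tecpr2 ki/ki, and their median log2 difference was -0.011. Over all 23244 genes, 50.5% were lower and the median was -0.00098. Nothing is read from these counts, since the difference of Dync1li1 chose the set. The microglial and astrocyte marker sums given above did not overlap between the genotypes, and their part in the values of the motor genes was not tested. Scaled to equal totals, the median of all genes moved by 0.0039 on the log2 scale, and the 10 genes kept their directions.

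The order of the motors could be compared only per length of transcript. Per kilobase of exons annotated in GENCODE M21, the mean normalized value over the 16 mice was 3207 ± 65.3 (SD) for Kif5a, 1678 ± 65.2 for Kif1a and 1332 ± 28.4 for Kif5c, the 3 highest. Dync1h1 followed with 757 ± 9.93, Dctn1 with 572 ± 13.1, Kif5b with 483 ± 12.9 and Dync1li2 with 441 ± 8.15. Dync1i1 had 285 ± 9.39, Dync1li1 230 ± 12.1 and Dync1i2 163 ± 5.94. No neighbours in this order overlapped in their ranges over the 16 mice, so the order was the same in each brain. When the longest annotated transcript gave the length, Dctn1 and Dync1h1 changed places, with 862 ± 19.8 and 826 ± 10.8, and the other 8 kept theirs. Among these motor genes, the neuronal kinesins thus stood above every dynein gene, and Dync1li1 stood last but one. Dynein genes of the lists below, such as the light chains, were not placed in this order.

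**Figure D3:**
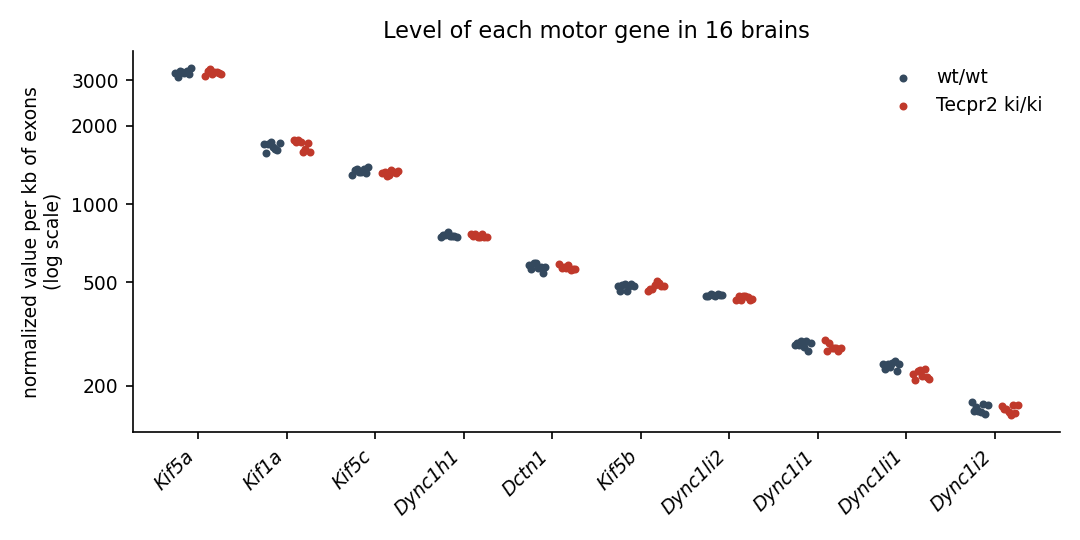
Normalized value per kilobase of exons on a log axis for each motor gene, with 1 point per brain (8 wt/wt in grey, 8 Tecpr2 ki/ki in red), ordered by the mean over the 16 mice. Genes are separated by more than the spread between mice, from 3207 for Kif5a to 163 for Dync1i2, and the genotypes lie side by side within each gene.

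The other genes of the machinery were put in 12 lists of 139 genes by family, of which 134 passed the filter. Their values are not divided by length, so the order of values within a list is not one of level. In the limma model, 0 of the 134 were called at an adjusted p under 0.1, as 0.133% of all genes were, while 7 (5.22%) had an unadjusted p under 0.05 against 6.08% of all genes. At an unadjusted p under 0.01, 1 gene (0.75%) was higher, against 0.856% of all genes, and 2 (1.49%) were lower, against 0.701%. By sign alone 52 were higher and 82 lower, with a median log2 difference of -0.0086. Over all genes, 50.5% were lower and the median was -0.00098. Signs here and in the lists below are not independent, since all values of one mouse come from the same library. Among list genes with a mean value of at least 50, no difference was larger than 0.14 on the log2 scale.

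Plekhm2, which couples lysosomes to kinesin-1 through ARL8, had the smallest p of the 134. It lay between 1093 and 1237 with a median of 1133 in Tecpr2 ki/ki, and between 997 and 1149 with a median of 1055.5 in wt/wt. All 8 Tecpr2 ki/ki mice were above the wt/wt median, and 6 of 8 wt/wt mice were below every Tecpr2 ki/ki mouse. The log2 difference was 0.11 (SE 0.0294, limma, Benjamini-Hochberg adjusted p = 0.220). The adjusted p ran from 0.0834 to 0.477 over the alternatives, and the lowest value, the one under 0.1, came from leaving out wt/wt mouse 8.

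Dclk1, a kinase of the doublecortin family that binds microtubules, lay between 7817 and 8231 (median 7996.5) in Tecpr2 ki/ki and between 7896 and 8510 (median 8244) in wt/wt. All 8 Tecpr2 ki/ki mice were below the wt/wt median (log2 difference -0.044, SE 0.0150, limma adjusted p = 0.527). Pafah1b1, or Lis1, which keeps dynein in its active form, lay between 6735 and 7179 (median 7038) and between 6954 and 7539 (median 7162.5), and 7 of 8 Tecpr2 ki/ki mice were below the wt/wt median (log2 difference -0.043, SE 0.0159, limma adjusted p = 0.614). Neither passed the adjustment over all genes.

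Within dynein 1 and its partners, differences were small in both directions. Of 9 light chains, 4 were higher and 5 lower. Dynll2, the one with the highest value, a small dimeric chain shared with other complexes, had means of 4534 and 4595 in Tecpr2 ki/ki and wt/wt (log2 difference -0.019). Dynlt1a and Dynlt1b, at -0.037 and 0.031, share 71.0% and 86.9% of their 31-base words with other genes, so the split of reads between copies is uncertain. Of 11 dynactin subunits, 5 were higher and 6 lower. Dctn3, the p24 subunit, had means of 411 and 387.5 (log2 difference 0.081, limma adjusted p = 0.874), Dctn5, a subunit of the pointed end, 563.5 and 580 (-0.041), and Actr1b, an actin-related subunit of the filament, 1856 and 1878 (-0.017). Of 21 regulators and adaptors, 7 were higher and 14 lower, with Hook2, an adaptor of the Hook family, at 90.6 and 99.5 (-0.14) and Ninl, a centrosomal adaptor, at 69.9 and 73.9 (-0.073).

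Dynein 2, which moves cargo back within cilia and not along axons, was listed for comparison. All 4 of its genes had higher means in Tecpr2 ki/ki, and 0 had p under 0.05 in limma. Dync2li1, its own light intermediate chain, lay between 84 and 114 with a median of 91.5 in Tecpr2 ki/ki, and between 76 and 98 with a median of 88.5 in wt/wt (log2 difference 0.11, SE 0.0844). The heavy chain Dync2h1 had means of 1420.5 and 1405.5 (0.016), and the intermediate chain Dync2i2 of 174 and 163 (0.086).

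Among kinesin partners, 3 of 4 kinesin-1 light chains were lower. Klc2 had means of 1807 and 1880 (log2 difference -0.057, limma adjusted p = 0.807), Klc1, with the highest value, 4051 and 4122 (-0.025), and Klc4 180 and 173 (0.056). Of 20 cargo adaptors and organelle couplers, 9 were higher and 11 lower. Clstn1, which links vesicles to kinesin light chains, had the highest value, with means of 11169 and 11220 (-0.0070), Bloc1s2, a subunit of the BORC complex that places lysosomes on kinesin, had 132 and 141 (-0.11), and 22.5% of its words are shared with other genes. Sybu, which ties cargo to Kif5b, was at -0.065 (limma adjusted p = 0.814).

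The remaining kinesins gave 2 of 5 higher in kinesin-3, 1 of 5 in kinesin-2, 7 of 11 in the other families, and 3 of 10 in the mitotic group, and 0 of these genes had p under 0.05 in limma. Kif1b, the close relative of Kif1a, had means of 14755 and 14715 (log2 difference 0.0040), Kif13a 650 and 663 (-0.030) and Kif16b, which moves early endosomes, 363 and 377 (-0.054). In kinesin-2, Kifap3, the subunit that binds cargo, had 2543 and 2586 (-0.025) and Kif17, a motor of dendrites, 217 and 226.5 (-0.062). Kif21a, a kinesin that restrains microtubule growth, had 2825 and 2887 (-0.032), Kif27 51.2 and 54.9 (-0.10), Kif9 59.6 and 58 (0.060), and the chromosome kinesin Kif22 96.2 and 98.4 (-0.048).

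Genes of the tracks likewise differed by little in either direction. Of 13 tubulins, 5 were higher and 8 lower. Tubb4a, with the highest value not divided by length, had means of 5553.5 and 5621.5 (log2 difference -0.018), Tubb6 68.5 and 72.9 (-0.098) and Tuba8 95.9 and 98.9 (-0.054). Of 21 microtubule-associated proteins, 4 were higher and 17 lower, with a list median of -0.0082. Map1b, again with the highest value not divided by length, had means of 23721 and 23874 (-0.0093), Map7d2, of a family that recruits kinesin-1, had 1540 and 1600 (-0.055, limma adjusted p = 0.807), and the dendritic protein Map2 was at -0.028 (limma adjusted p = 0.714).

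**Figure D4:**
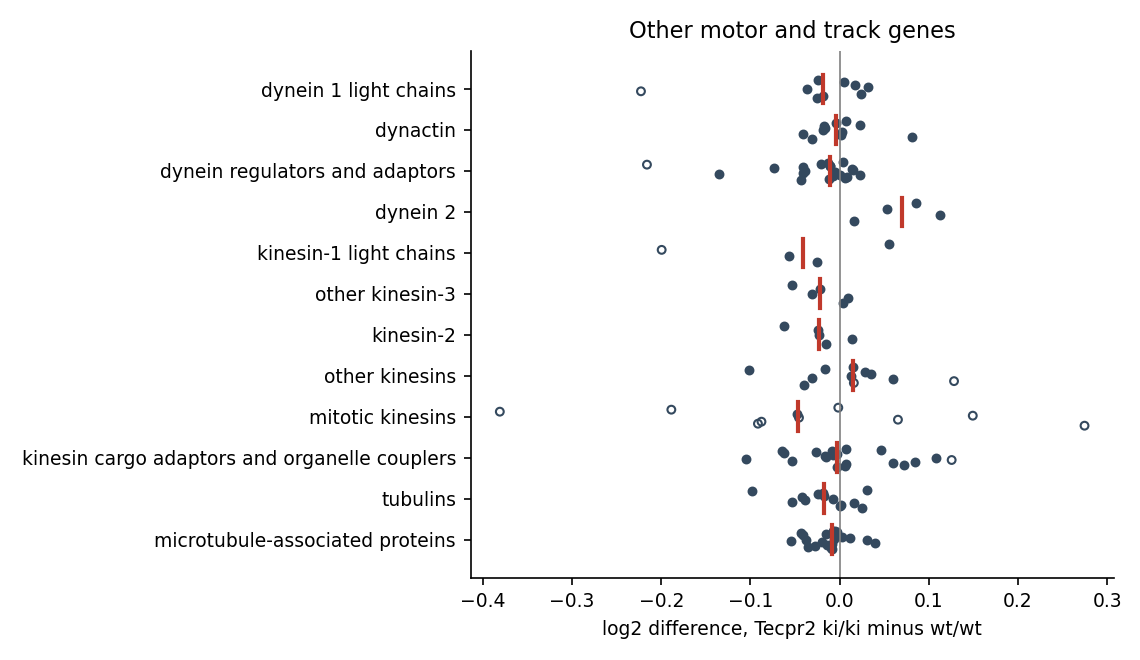
Log2 difference, Tecpr2 ki/ki minus wt/wt, of the 134 other motor and track genes by list; filled points have a mean value of at least 50, open points a lower one, and the red line is the median of the list. The 4 dynein 2 genes all lie above 0, the mitotic kinesins spread from -0.38 to 0.27, and points beyond 0.14 in either direction are open, that is, genes of low level.

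Across the 16 brains, with the genotype means removed, the motor genes went together only loosely. Of 45 pairs, 34 had a Pearson r above 0, with a median of 0.18, and all values of one mouse come from the same library. Pairs of genes outside the set were not counted, so nothing is read from these figures. For Dync1li1 alone, r with 11240 genes of a mean value of at least 100 had quartiles of -0.15 and 0.24 around a median of 0.049. Dync1i1 with Dctn1 had the highest r at 0.63, followed by Dync1h1 with Dync1i1 at 0.51 and Dync1li2 with Kif5b at 0.50, and Kif5c with Kif1a had the lowest at -0.44. Dync1li1 had its highest values with the intermediate chains, 0.42 with Dync1i1 and 0.37 with Dync1i2, and 0.027 with the heavy chain Dync1h1.

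**Figure D5:**
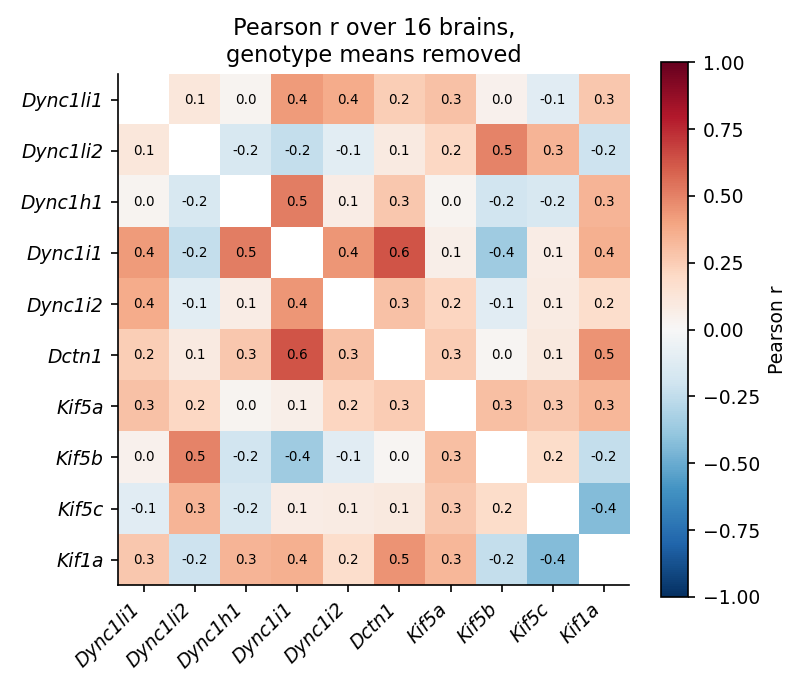
Pearson r between the motor genes over 16 brains on the log2 scale, after the mean of each genotype was removed; red is positive and blue negative, and the diagonal is left blank. The pair of Dync1i1 and Dctn1 has the highest r, 0.63, and Kif5c and Kif1a the lowest, -0.44.

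The genes most like Dync1li1 in this measure were no motors. Among 11240 genes with a mean value of at least 100, whose median r with Dync1li1 was 0.049, the 5 highest were Rad21 (0.82), a cohesin subunit, Snu13 (0.78), a small nucleolar and spliceosomal protein, Spcs3 (0.77), a subunit of the signal peptidase, Ndufs5 (0.76), a subunit of complex I, and Rgl1 (0.76), an exchange factor for Ral. The 3 most negative were Dusp11 (-0.81), Adarb2 (-0.79) and Gm44559 (-0.77). Between the genotypes, the log2 difference of the 5 highest genes was -0.0038 for Rad21, 0.0053 for Snu13, -0.057 for Spcs3, -0.059 for Ndufs5 and 0.0065 for Rgl1. The genes named here are the extremes of 11240 correlations, and the negative end (-0.81) lay about as far out as the positive end (0.82). How far out unrelated genes would reach among so many was not tested. The names are therefore a description, and no link to Dync1li1 is read from them.

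Genes beside Dync1li1 on chromosome 9 gave no call. Cnot10, the nearest tested gene before it, had means of 561 ± 22.9 and 550 ± 22.5 (SD, n = 8 each; log2 difference 0.029, limma adjusted p = 0.950), and Cmtm6, the nearest after it, 247 ± 18.1 and 247 ± 14.9 (log2 difference -0.00049, limma adjusted p = 1.00). The next ones out, Trim71 and Cmtm7, had mean values under 50 and log2 differences of -0.18 and -0.25 (limma adjusted p = 0.903 and 0.877). None of the 4 overlaps Dync1li1 in the annotation.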

How the data were processed

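Total RNA of 16 brains was sequenced by the authors as stranded libraries after depletion of ribosomal RNA, trimmed (Trim Galore 0.6.10, cutadapt 3.4), aligned to GRCm39 with STAR 2.7.10b, counted per gene and tested with DESeq2 1.40.2. The authors deposited a score for each gene in each mouse, on a linear scale, normalized and rounded to whole numbers, and the scaling is not given in the sources used here. The series table and the 16 tables of single mice held the same values. Rounding hides the depth of each library, so no counting error is given. The p-values set the difference between the genotypes against the spread between mice of a genotype. In limma, each variance is drawn towards that of genes of similar level, so the standard errors do not follow from the SDs alone.

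Genes whose values had a sum over 16 and were over 5 in 4 or more mice of a genotype (23244 of 55404) were fitted with limma 3.58.1 in R 4.3.3 on log2(value + 1), with genotype as the only term, trend and robust estimates and Benjamini-Hochberg adjustment over all of them; fold changes are on that scale, which understates those of low genes. The steps were tested on simulated data. Calls use an adjusted p under 0.1, with unadjusted 0.01 as second limit. Symbols matched for 52017 genes (GENCODE M21, GRCm38, an earlier build than that of the reads), and positions, lengths and shared 31-base words come from it; promoters are from RefSeq. Values per kilobase assume that the deposited values were not divided by length. Python 3.11.15 was used elsewhere.

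The members and lists were chosen with earlier results of these data known. Named are the 10 members, Tecpr2, list genes with p under 0.01, in each list the 2 largest differences among genes with a mean of at least 50 and the highest mean, the 5 genes most and 3 least like Dync1li1, and the 2 tested genes on each side of it. Map2 and Sybu, which complete the 7 at p under 0.05, and the 4 other genes without overlap were named after their values had been seen. Alternatives were the pseudocount, the filter, equal totals, the robust estimate, a replicate block, each mouse left out and, added after the data had been seen, the longest transcript as length and the log2 of group means. The authors' raw counts were not used here.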

Additional observations from a re-analysis of the deposited data

Results flagged for a closer look

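In 5 of 118 groups of 8 mice (58 named genes and the share of Dync1li1, by genotype), 1 mouse stood apart from the other 7 by Dixon's criterion, which chance alone meets in about 1 of 20 groups. Dync1h1 was 12246 in wt/wt mouse 4, above the next mouse at 11959 and the lowest at 11754. The same mouse had the outlying value of Map1b, 24678, above 23900 and 23546. Kifap3 was 2297 in Tecpr2 ki/ki mouse 1, below the next at 2531 and the highest at 2643. Dynlt1b was 97 in Tecpr2 ki/ki mouse 2, below 128 and 142, in a gene that shares 86.9% of its words with copies. Adarb2 was 566 in wt/wt mouse 7, above 510 and 467, and that mouse had the lowest Dync1li1 value of the wt/wt mice, 885. Adarb2 was named for its negative correlation with Dync1li1 over these same mice, so this meeting is no separate result.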

How the results depend on the processing

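The directions of Dync1li1, Dync1li2 and 6 further motor genes were the same under the 19 alternatives that change a fitted difference at all, while those of Kif5a and Kif5b, both near 0, turned under 2 and 4 of them. The filter, the robust estimate and the block leave each difference identical and say nothing of its direction. With 1 mouse left out, the log2 difference of Dync1li1 ran from -0.13 to -0.11, of Dync1li2 from -0.043 to -0.036, of Dync1h1 from -0.011 to -0.0012, of Dync1i1 from -0.046 to -0.025, of Dync1i2 from -0.025 to -0.0013, of Dctn1 from -0.020 to -0.0020, of Kif5a from -0.013 to 0.0023, of Kif5b from -0.0071 to 0.011, of Kif5c from -0.034 to -0.020 and of Kif1a from 0.011 to 0.035, and the difference in the Dync1li1 share from -1.14 to -0.838 percentage points. In limma, 31 genes of the whole table were called at an adjusted p under 0.1, 20 with no filter on low values, when 41926 genes were tested, and 25 to 40 with 1 mouse left out. At p under 0.01 there were 362 and 318 to 389. Of the transport list genes, 0 were called and 0 to 1 with 1 mouse left out, the 1 being Plekhm2 without wt/wt mouse 8 (adjusted p = 0.0834). At p under 0.01, 3 of them fell to 1, Plekhm2, without the robust estimate, and to 1 to 3 with 1 mouse left out, the 1 without Tecpr2 ki/ki mouse 4, wt/wt mouse 3 or wt/wt mouse 6. The cause of these changes was not tested. With the longest transcript as length, Dync1h1 ranked 5 and Dctn1 ranked 4.

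Replicate numbers did not pair the mice: the deviations of same-numbered mice correlated between -0.050 and 0.15, and 2 of 8 matched their own number best. A replicate block gave 46 calls over the whole table and 0 among the list genes. Rounded values and the unknown depth of single libraries limit what can be said of low genes. Differences of a few percent can lie near the spread between mice. Dync1i1 differed by -2.20%, with coefficients of variation of 3.45% in Tecpr2 ki/ki and 2.93% in wt/wt. Dync1li2 differed by -2.72%, more than its coefficients of variation of 1.63% and 0.626%.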
